A study of Rattus norvegicus with 9 samples.

Results

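The genes of fatty acid uptake and oxidation were compared between right ventricles of sham-operated rats and rats with pulmonary artery banding (PAB). The set was given as a list of 36 gene symbols, and each gene was represented by the array feature that carried its symbol and no other, or by the brightest such feature where a gene had several. Of the 36 genes, 35 had a feature among the 29215 features of the array. The exception was Slc22a5, which encodes the carnitine transporter of the plasma membrane and whose symbol stood only on a feature shared with other genes.

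In the adult heart, long-chain fatty acids are the main fuel. They cross the plasma membrane, are activated to acyl-CoA, pass into the mitochondrion as carnitine esters and are shortened by repeated cycles of beta oxidation, whose electrons enter the respiratory chain through the electron transfer flavoprotein. Many genes of this pathway are known targets of the nuclear receptor PPARalpha, and the hypertrophied heart is known for using less fatty acid and more glucose.

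All animals were male SD (Sprague-Dawley) rats, and no age is stated in the labels. The Sham group was operated on without banding. In the 2 banded groups the pulmonary artery was narrowed, which overloads the right ventricle, and hearts were divided 4 weeks after the operation into the F- group, with a fibrotic area below 6.5%, and the F+ group, with a fibrotic area above it. Each group was measured on 3 Affymetrix Rat Gene 1.0 ST arrays, numbered 1 to 3, and no source ties an array to an animal. The methods mention hybridizations in triplicate, and p-values here cover no more than array-to-array spread, possibly of technical origin. With 3 arrays against 3, an exact permutation test cannot go below p = 0.1. The tissue was bulk ventricle, in which fewer cells of a type and less RNA per cell cannot be told apart.

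Array medians lay between 33.4 and 33.9. All 16 measured cardiomyocyte markers had values of at least 112.3 on every array, and no marker gene of any list was at 0. Sham array 2 had a summed value of 656.6 over 6 atrial markers, whereas the other arrays had 357.8 to 453.6. For the fatty acid genes it was instead Sham array 1 that stood apart, which is described below with the values it touches.

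The deposited values ran from 1 to 190.4, and their scale is not stated. Fold changes are given here as differences of mean log2 deposited values. The square roots of the values ran from 1 to 13.8, a span like that of log2 intensities, so that log2 intensities that had been squared would give such values, and the differences of square roots would then be the log2 fold changes. The differences of square roots are therefore given beside the main values, and which of the scales holds could not be settled.

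Fatty acid genes had lower values in the F+ group than in both other groups. Relative to Sham, 33 of 35 genes had a lower mean in F+, with a median log2 fold change of -0.10 (median difference of square roots -0.36). Relative to F-, 33 of 35 were lower in F+, with a median of -0.065 (square roots -0.25). Between F- and Sham, 28 of 35 were lower in F-, with a median of -0.034 (square roots -0.13). Over all features, 52.4%, 51.6% and 51.7% were lower in these comparisons, with medians of -0.0035, -0.0023 and -0.0025.

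No fatty acid gene passed an adjusted p of 0.05 in any comparison (limma with Benjamini-Hochberg adjustment over all features). The smallest adjusted p of a fatty acid gene was 0.6 for F+ against Sham, 0.601 for F+ against F- and 0.743 for F- against Sham. Of all features, 0.00342% passed for F+ against F-, 0% for F- against Sham and 0% for F+ against Sham. None of the differences of single genes given here is therefore a call. The 3 comparisons share arrays and are not independent of one another.

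At an unadjusted p under 0.05 from limma, 22 fatty acid genes were lower in F+ than in Sham, against 3.9% of all features. From F- to F+ there were 9 such genes, Eci2, Etfb, Hadh, Cpt2, Slc25a20, Echs1, Etfdh, Fabp3 and Acadm, against 3.76% of all features. From Sham to F- there were 3, Slc27a1, Decr1 and Pdk4, against 2.96% of all features. No fatty acid gene was higher at this level in any comparison. The counts moved with single arrays. Without Sham array 1, 14 genes were lower in F+ than in Sham (3.09% of all features). For F+ against F-, 2 genes were counted when F- array 3 was left out (2.37%), and 4 when F- array 2 was (3.28%). Leaving out F+ array 2 gave 3 genes (3.4%) and leaving out F+ array 3 gave 5 (3.43%). For F- against Sham the count was 8 when F- array 3 was left out (2.91%), 7 without Sham array 3 (2.64%) and 1 without F- array 1 (2.35%).

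The groups were also compared by overlap of the single arrays. In 28 genes every F+ array lay below every Sham array, against 6.56% of all features. In 12 genes every F+ array lay below every F- array, against 5.28% of all features. In 6 genes, Slc27a1, Acsl3, Decr1, Acot1, Mlycd and Pdk4, every F- array lay below every Sham array, against 4.64% of all features. The 3 F+ arrays lay below all 6 other arrays in Fabp3, Lpl, Cpt2, Slc25a20, Acadl, Acadm, Echs1, Eci1, Etfa, Etfb, Etfdh and Eci2, which are 12 of 35 genes against 1.84% of all features. Without F- array 1, the genes with F+ wholly below F- numbered 22 (12.8% of all features). Without F- array 3 the genes with F- wholly below Sham numbered 15 (9.06%), and without Sham array 3 they numbered 11 (8.8%).

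The order of the group means was Sham, then F-, then F+ in 27 of 35 genes, an order that 18.2% of all features had. In Acads, Echs1, Etfa, Hsd17b4 and Eci2 the F- mean was the highest and the F+ mean the lowest. Pdk4 alone among the fatty acid genes had its lowest mean in F-. The means of Acsl4 and Acsl6 were lowest in Sham. Many of these neighbouring means differed by less than the spread between arrays.

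**Figure D1:**
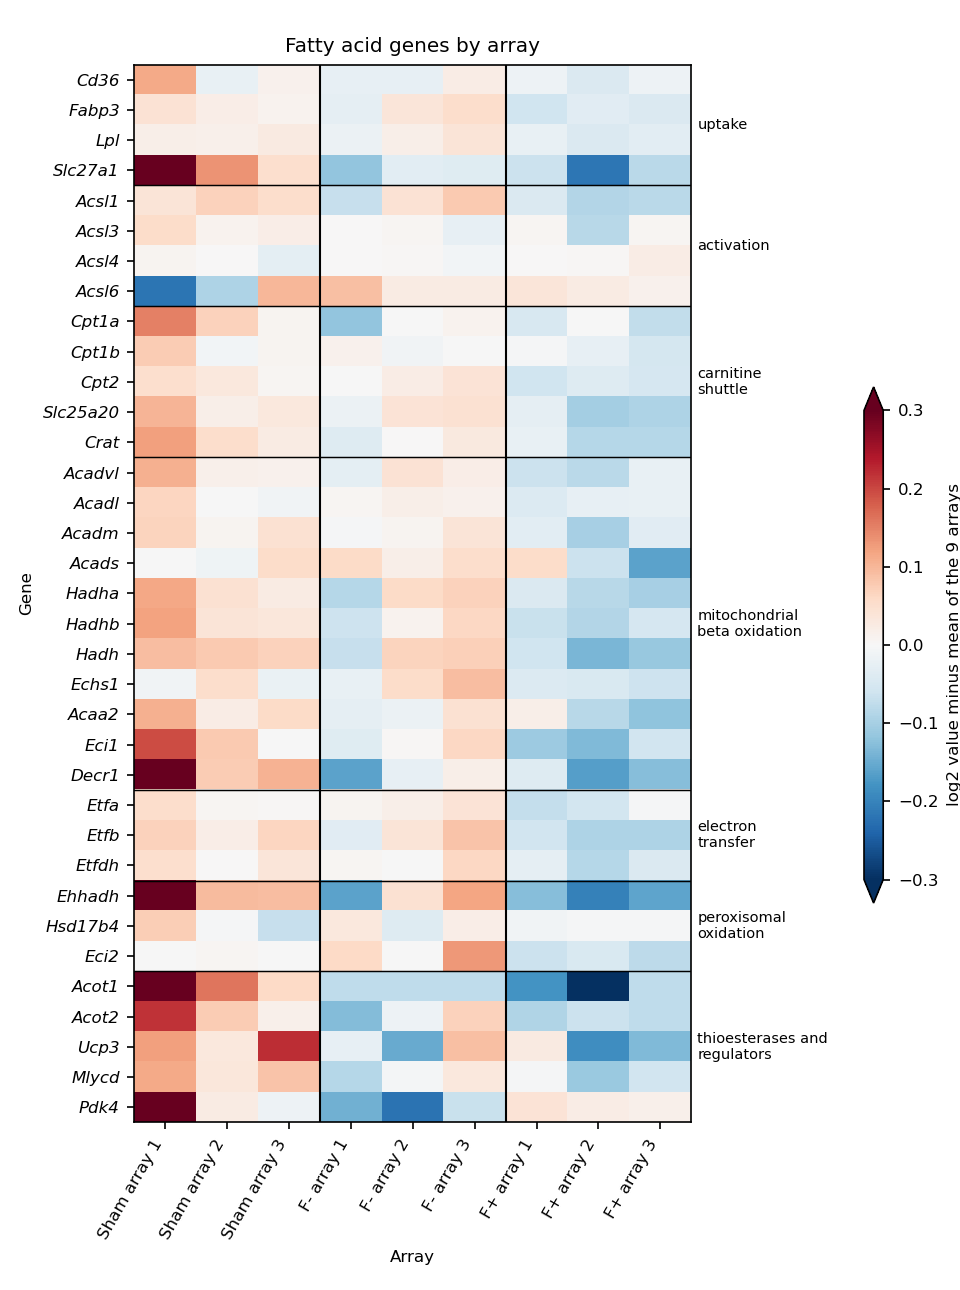
Log2 deposited values of the 35 fatty acid genes (rows, ordered by step of the pathway) on the 9 arrays (columns), each minus the mean of that gene over the 9 arrays. Red is above and blue below that mean, and colours saturate at 0.3. The 3 F+ columns are mostly blue, and most of the darkest reds stand in the column of Sham array 1, which held the highest value of 24 of 35 genes.

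Uptake was represented by Cd36, the fatty acid translocase of the plasma membrane, Slc27a1, a fatty acid transport protein, Lpl, the lipase that frees fatty acids from circulating triglycerides, and Fabp3, the fatty acid binding protein of the heart muscle cell. All 4 had lower means in F+ than in Sham, with a median log2 fold change of -0.065 and unadjusted p under 0.05 for Slc27a1 and Fabp3.

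Cd36 had values of 148.6, 135.4 and 138.6 on Sham arrays 1 to 3, the order used for all values below. It had 135.1, 135.1 and 139.5 in F- and 136.1, 133.3 and 135.9 in F+. The groups overlapped, and the highest value was that of Sham array 1. Cd36 had a log2 fold change of -0.059 for F+ against Sham (standard error 0.037, unadjusted p = 0.154 from limma) and -0.015 for F+ against F- (standard error 0.037). Without Sham array 1 the value for F+ against Sham was -0.020. The value for F+ against F- was -0.023 without F- array 1 and nearly 0 without F- array 3. A second Cd36 feature had 106, 94 and 97.1 in Sham and 92.7 to 95 in F- and 94 to 96.4 in F+, with a difference of -0.059 between F+ and Sham and of 0.012 between F+ and F-.

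Slc27a1 had values of 92.4, 78.8 and 74.3 in Sham. It had 66.2, 70.2 and 70 in F- and 68.7, 61.8 and 67.9 in F+. Both banded groups lay wholly below Sham and overlapped each other. Its log2 fold change was -0.30 for F+ against Sham (standard error 0.081, unadjusted p = 0.00605 and adjusted p = 0.604 from limma) and -0.24 for F- against Sham (unadjusted p = 0.0172). As differences of square roots these were -0.91 and -0.74. Without Sham array 1 the log2 fold changes were -0.21 and -0.15.

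Fabp3 lay between 145.7 and 149.2 in Sham, between 142 and 150 in F- and between 138.9 and 141.4 in F+. Lpl lay between 150 and 151 in Sham, between 146.5 and 152.3 in F- and between 143.9 and 146 in F+. In both genes the F+ arrays lay below all others, while F- and Sham overlapped. The log2 fold change for F+ against F- was -0.065 for Fabp3 and -0.046 for Lpl.

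Activation is carried out by the long-chain acyl-CoA synthetases, of which Acsl1 is the main form of the heart. This step had the medians nearest to 0 among the steps, at -0.018 for F+ against Sham and -0.020 for F+ against F-, and with 2 and 3 of 4 genes lower. Acsl1 had 117.9 to 120.5 in Sham, 109.4, 118.4 and 121.2 in F- and 108 to 111.5 in F+. It was the synthetase with the most negative value, at -0.12 for F+ against Sham (standard error 0.040, unadjusted p = 0.0147 from limma). Acsl3 lay between 49 and 54 on all arrays and Acsl4 between 37.7 and 39.1. The sign of Acsl3 between F+ and F- (-0.018) turned without F+ array 2. Acsl6 had 51.5, 56.2 and 64.3 in Sham and 60.5 to 63.8 on the banded arrays, so that the Sham arrays spanned all the banded ones.

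The carnitine shuttle comprises Cpt1a and Cpt1b, the carnitine palmitoyltransferases of the outer membrane and the site of inhibition by malonyl-CoA, Slc25a20, the carnitine-acylcarnitine translocase of the inner membrane, Cpt2, which re-forms acyl-CoA inside, and Crat, which acts on short chains such as acetyl-CoA. All 5 measured genes had lower means in F+ than in Sham and than in F-, with medians of -0.12 and -0.062. F+ lay wholly below F- in Slc25a20 and Cpt2 and overlapped it in Cpt1a, Cpt1b and Crat.

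Cpt1b, the muscle form, had 135.6, 127.9 and 129.2 in Sham. It had 129.8, 127.7 and 128.5 in F- and 128.3, 126.4 and 123.9 in F+. The groups overlapped, with a log2 fold change of -0.052 for F+ against Sham (standard error 0.030, unadjusted p = 0.116 from limma) and of -0.028 for F+ against F-. These were -0.027 without Sham array 1 and -0.015 without F+ array 3, respectively. Cpt1a, the form best known from liver, had 82.8, 78.2 and 75 in Sham, 68.6 to 75.1 in F- and 70.8 to 74.5 in F+. Between F+ and F- its value of -0.0044 changed sign with quantile normalization and without F- array 2, F- array 3 or F+ array 3.

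Slc25a20 had 96.4, 91 and 91.9 in Sham. It had 88.8, 92.5 and 92.8 in F- and 88.2, 83.8 and 84.3 in F+. The F+ arrays lay below all others, and F- overlapped Sham. Its log2 fold change was -0.12 for F+ against Sham (standard error 0.035, unadjusted p = 0.0081 from limma) and -0.097 for F+ against F- (unadjusted p = 0.0252).

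Cpt2 had 113.2, 111.7 and 109.7 in Sham. It had 109.2, 110.9 and 112.4 in F- and 104.8, 106.3 and 105.5 in F+. Sham and F- overlapped, and F+ lay below both. Its log2 fold change was -0.080 for F+ against Sham (standard error 0.024, unadjusted p = 0.0109 from limma) and -0.071 for F+ against F- (unadjusted p = 0.0191).

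Crat had 137.3, 130.9 and 128.4 in Sham. It had 122.9, 126.2 and 128.8 in F- and 124.3, 118.9 and 118.9 in F+. Here F+ lay below Sham and overlapped F-. Crat had a log2 fold change of -0.13 for F+ against Sham (standard error 0.035, unadjusted p = 0.00637 from limma) and -0.062 for F+ against F-.

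Mitochondrial beta oxidation had the most genes, and all 11 had lower means in F+ than in Sham and than in F-. The median log2 fold change was -0.12 for F+ against Sham (square roots -0.52) and -0.072 for F+ against F- (square roots -0.28). At an unadjusted p under 0.05, 8 of the 11 were lower in F+ than in Sham (3.9% of all features) and 3 lower in F+ than in F- (3.76%). In 10 of the 11, all but Acads, the F+ arrays lay wholly below Sham, against 6.56% of all features.

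The acyl-CoA dehydrogenases carry out the first step of each cycle and are named for the chain length they accept. Acadm, for medium chains, had 124.8, 119.8 and 123 in Sham. It had 118.8, 119.9 and 122.3 in F- and 116.6, 111.1 and 116.4 in F+. F+ lay below all other arrays, and F- overlapped Sham. Acadm had a log2 fold change of -0.095 for F+ against Sham (standard error 0.030, unadjusted p = 0.0133 from limma) and -0.069 for F+ against F- (unadjusted p = 0.0498). For Acadvl, for very long chains, it was -0.10 for F+ against Sham, for Acadl, for long chains, -0.046, and for Acads, for short chains, -0.070. Acads overlapped between all groups, with 87.9, 81 and 75.8 in F+ and 83.9 to 88.1 on the other arrays. Its value for F+ against Sham ranged from -0.13 without F+ array 1 to -0.019 without F+ array 3, and that of Acadl was -0.023 without Sham array 1.

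Hadha and Hadhb encode the subunits of the mitochondrial trifunctional protein, which carries out the later steps of the cycle on long chains. Hadha had 143, 136.3 and 134.2 in Sham. It had 124.3, 137.3 and 138.5 in F- and 128, 124.5 and 123.1 in F+. The F+ arrays lay below Sham, and F- array 1 lay among them. Hadha had a log2 fold change of -0.14 for F+ against Sham (standard error 0.047, unadjusted p = 0.0196 from limma) and -0.090 for F+ against F-, the latter -0.14 without F- array 1. A second Hadha feature had 75.1 to 81.4 in Sham, 64.8, 71.6 and 76 in F- and 63.5 to 68.7 in F+, with -0.24 for F+ against Sham and -0.11 for F+ against F-.

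Hadhb had 136.6, 129 and 128.5 in Sham. It had 120.2, 126.6 and 131.2 in F- and 119.9, 118.2 and 121.3 in F+. Like Hadha, it had its lowest F- value on array 1, within the span of F+. Its log2 fold change was -0.13 for F+ against Sham (standard error 0.040, unadjusted p = 0.0106 from limma) and -0.072 for F+ against F-, the latter -0.042 without F- array 3.

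These 2 genes lie head to head on chromosome 6 in RefSeq (assembly GRCr8), Hadha on the + strand and Hadhb on the - strand. The start site taken for Hadhb, at position 31907500, lies inside its gene span, which reaches 31907557. From that position the start site of Hadha is 301 bases away. Promoter windows of 300 bases, from 250 bases before the start site to 50 after it, therefore share 200 bases. The Hadhb window (GRCr8, chr6:31907451-31907750, - strand) is shown because it holds most of the sequence between the 2 genes. Capitals mark GGGCGG, the GC box, and AGGTCA, the half-site of nuclear receptors, on either strand.
Hadhb promoter: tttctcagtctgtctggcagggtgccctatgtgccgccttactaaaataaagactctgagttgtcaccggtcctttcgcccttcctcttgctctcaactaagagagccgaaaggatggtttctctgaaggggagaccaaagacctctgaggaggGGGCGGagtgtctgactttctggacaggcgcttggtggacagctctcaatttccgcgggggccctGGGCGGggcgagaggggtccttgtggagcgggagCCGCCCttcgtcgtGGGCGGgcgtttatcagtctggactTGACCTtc
It held 4 GC boxes and 1 half-site, which lay 42 bases after the start site.

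Hadh, the short-chain hydroxyacyl-CoA dehydrogenase, had 138.9, 137.7 and 136.8 in Sham. It had 124.3, 136.5 and 136.9 in F- and 125.1, 118.5 and 120.5 in F+. The Sham arrays were close together, F+ lay wholly below them, and F- array 1 lay within F+ while the other F- arrays lay beside Sham. Hadh had the smallest unadjusted p of all fatty acid genes for F+ against Sham, with a log2 fold change of -0.18 (standard error 0.042, unadjusted p = 0.0026 and adjusted p = 0.6 from limma). As a difference of square roots this was -0.72, which would be 1.65-fold lower on that scale, against 1.14-fold lower on the log2 scale of the deposited values. For F+ against F- the log2 fold change was -0.13 (unadjusted p = 0.0177), and it was -0.17 without F- array 1.

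Echs1, the short-chain enoyl-CoA hydratase, had 117.7 to 123.8 in Sham, 117.4 to 127.3 in F- and 114.3 to 115.9 in F+. Acaa2, the thiolase that closes the cycle, had 150.9 to 159.8 in Sham, 145.8 to 153.3 in F- and 136.5 to 150.4 in F+. F+ lay below Sham in both genes and below F- in Echs1.

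Eci1 and Decr1 handle unsaturated fatty acids, as an enoyl-CoA isomerase and a dienoyl-CoA reductase. Eci1 had 127.6, 117.7 and 111.3 in Sham, 108.6, 111.7 and 116.3 in F- and 103.3, 101.7 and 107.1 in F+. F+ lay below all others, and the Sham arrays were spread widely. The log2 fold change of Eci1 was -0.19 for F+ against Sham (standard error 0.053, unadjusted p = 0.00714 from limma), -0.14 without Sham array 1, and -0.11 for F+ against F-.

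Decr1 had 84.8, 71.6 and 73 in Sham. It had 60.8, 66.8 and 68.8 in F- and 66.1, 60.6 and 62.2 in F+. As in Slc27a1, both banded groups lay below Sham and overlapped each other. The log2 fold change of Decr1 was -0.28 for F+ against Sham (standard error 0.075, unadjusted p = 0.0066 from limma) and -0.22 for F- against Sham, the latter -0.15 without Sham array 1. Between F+ and F- it was -0.055, and it ranged from -0.11 without F- array 1 to -0.018 without F- array 3.

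**Figure D2:**
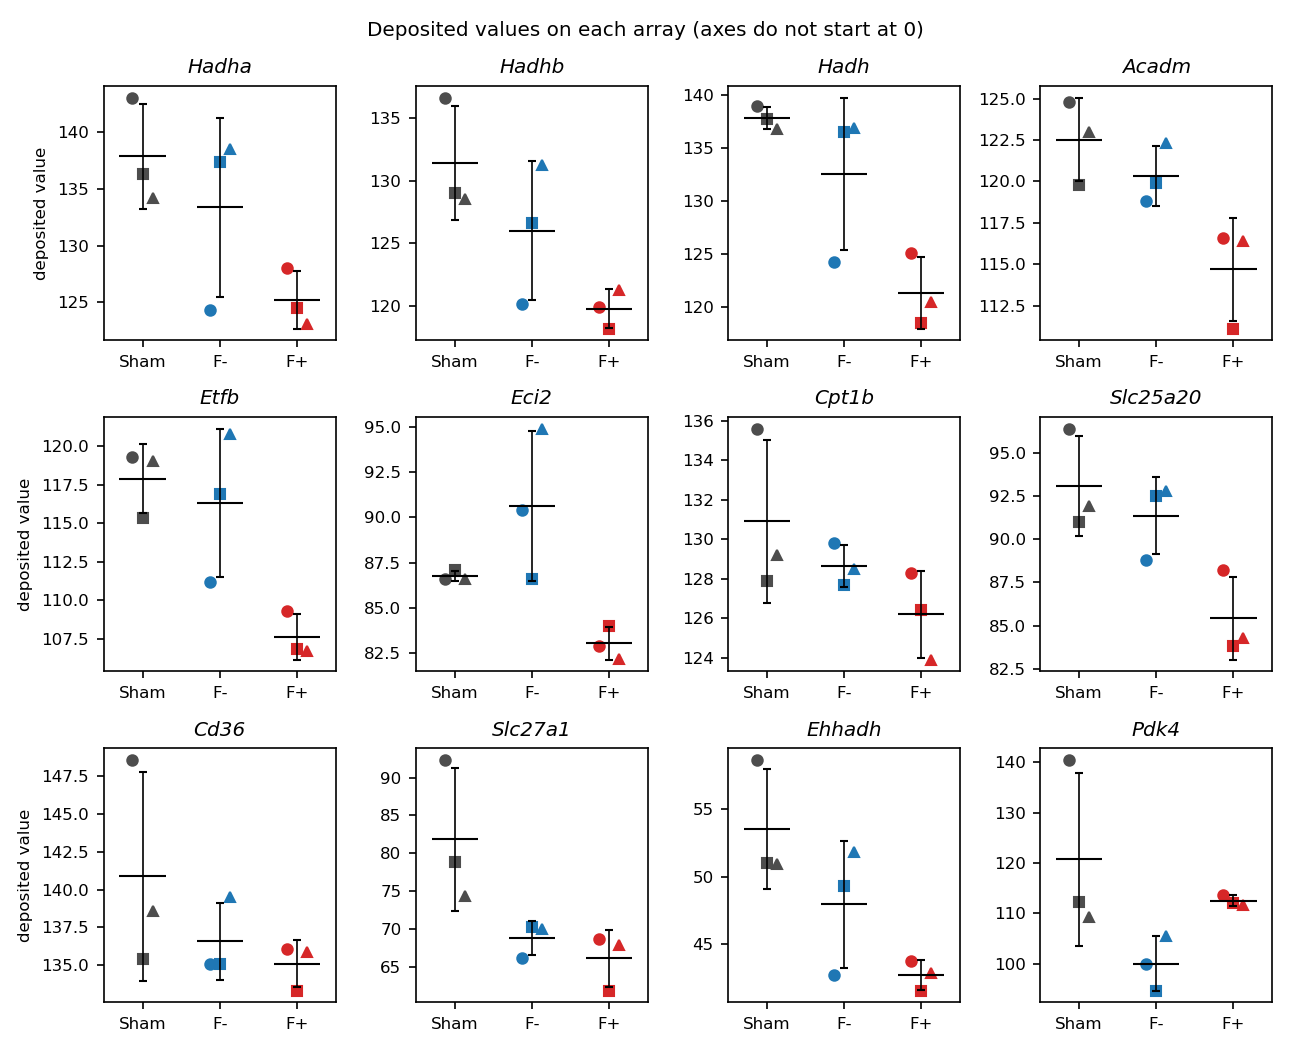
Deposited values (vertical axes, no unit given, not starting at 0) of 12 fatty acid genes on the arrays of the Sham, F- and F+ groups, where circles are array 1, squares array 2 and triangles array 3. Long lines are group means and bars are SD (n = 3), and in Hadha, Hadhb and Hadh the circle of F- lies at the level of F+ while the other F- arrays lie near Sham.

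Electron transfer from the dehydrogenases to the respiratory chain runs through the flavoprotein subunits Etfa and Etfb and the dehydrogenase Etfdh. In all 3 genes the F+ arrays lay below all other arrays, against 1.84% of all features. The median log2 fold change was -0.081 for F+ against Sham and -0.074 for F+ against F-, and it was -0.0070 for F- against Sham. Etfb had 119.3, 115.3 and 119 in Sham, 111.2, 116.9 and 120.8 in F- and 109.3, 106.8 and 106.7 in F+. Its log2 fold change was -0.13 for F+ against Sham (standard error 0.035, unadjusted p = 0.00575 from limma) and -0.11 for F+ against F- (unadjusted p = 0.0131). For F+ against F-, Etfa had -0.065 and Etfdh -0.074.

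Peroxisomal oxidation shortens very long chains, and was represented by Ehhadh and Hsd17b4, the bifunctional enzymes, and Eci2, an enoyl-CoA isomerase of peroxisomes and mitochondria. The 3 genes had different patterns over the groups. Ehhadh had 58.7, 51 and 50.9 in Sham, 42.7, 49.3 and 51.8 in F- and 43.7, 41.5 and 42.8 in F+. F- array 1 again lay at the level of F+. The log2 fold change of Ehhadh was -0.32 for F+ against Sham (standard error 0.081, unadjusted p = 0.00433 and adjusted p = 0.6 from limma) and -0.16 for F+ against F-. Without Sham array 1 the first was -0.26, while the second was -0.24 without F- array 1 and -0.11 without F- array 3.

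Hsd17b4 had 81.8 to 90.3 in Sham, 83.5 to 87.7 in F- and 85.2 to 85.6 in F+. Hsd17b4 had a log2 fold change of -0.0056 for F+ against Sham and of -0.0092 for F+ against F-, with signs that turned without Sham array 1 and without F- array 1, respectively. The 95% confidence interval for F+ against Sham was -0.096 to 0.085.

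Eci2 had 86.6, 87.1 and 86.6 in Sham. It had 90.4, 86.6 and 94.9 in F- and 82.9, 84 and 82.2 in F+. The Sham arrays were nearly identical, F- reached above them and F+ lay below. Eci2 had the smallest unadjusted p of all fatty acid genes for F+ against F-, with a log2 fold change of -0.13 (standard error 0.034, unadjusted p = 0.00701 and adjusted p = 0.601 from limma, square roots -0.41). For F- against Sham it was 0.062, the opposite direction to most fatty acid genes, and for F+ against Sham -0.064. The former ranged from 0.028 without F- array 3 to 0.094 without F- array 2.

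The thioesterases and regulators had the most negative median for F+ against Sham, at -0.18, with all 5 lower. For F- against Sham the median was -0.15, also with all 5 lower. For F+ against F- it was -0.052, with 4 of 5 lower. Acot1 and Acot2 split acyl-CoA into free acid and CoA in the cytosol and in the mitochondrion, and lie 14455 bases apart on chromosome 6. Their sequences were not compared, and whether their features share probes was not tested. Acot1 was dim, with 18.3, 11.9 and 11.1 in Sham, 10.1 on each F- array and 9.4, 7.4 and 10.1 in F+, and was the only fatty acid gene among the dimmest 33.3% of features. Its log2 fold change for F+ against Sham was -0.59 (standard error 0.19, unadjusted p = 0.0147 from limma), and -0.37 without Sham array 1. Acot2 had 125.8, 114.1 and 109.3 in Sham, 98.9 to 113.5 in F- and 101.6 to 103.5 in F+, with -0.18 for F+ against Sham.

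Ucp3, an uncoupling protein of muscle mitochondria, had 57.7 to 65.8 in Sham, 50.8 to 60.1 in F- and 49.6 to 57.5 in F+. Mlycd, the decarboxylase that removes malonyl-CoA, had 70.1, 66.3 and 68.7 in Sham. It had 61.1, 64.5 and 66.2 in F- and 64.6, 60 and 62.3 in F+. Both banded groups lay below Sham for Mlycd, with log2 fold changes of -0.13 for F+ (standard error 0.042, unadjusted p = 0.0132 from limma) and of -0.097 for F- (unadjusted p = 0.0506).

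Pdk4, the kinase that shuts pyruvate dehydrogenase and is known to be induced by fatty acids, had another order of groups. It had 140.5, 112.3 and 109.3 in Sham. It had 99.9, 94.7 and 105.5 in F- and 113.7, 112.1 and 111.6 in F+. F- lay below both other groups, and F+ lay beside Sham arrays 2 and 3. The log2 fold change of Pdk4 was -0.26 for F- against Sham (unadjusted p = 0.0209 from limma), 0.17 for F+ against F- (standard error 0.091, unadjusted p = 0.0993, square roots 0.61) and -0.093 for F+ against Sham (standard error 0.091). Without Sham array 1 the first was -0.15 and the last 0.022, and without Sham array 3 the last was -0.16. Pdk4 was the only fatty acid gene whose F+ arrays lay wholly above F-.

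The Pdk4 promoter window (RefSeq, GRCr8, chr4:34568280-34568579, - strand) is also shown, with GGGCGG and CCAAT in capitals on either strand.
Pdk4 promoter: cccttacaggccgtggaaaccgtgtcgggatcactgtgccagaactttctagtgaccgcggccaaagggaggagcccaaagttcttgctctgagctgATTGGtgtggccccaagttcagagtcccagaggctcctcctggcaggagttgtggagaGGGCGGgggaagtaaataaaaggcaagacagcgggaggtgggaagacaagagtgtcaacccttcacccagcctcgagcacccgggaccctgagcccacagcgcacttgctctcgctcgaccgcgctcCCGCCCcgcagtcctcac
It held 2 GC boxes, 1 CCAAT box and no AGGTCA half-site. Among the 30 fatty acid genes with a window, 8 held a half-site, so its absence was not particular to Pdk4.

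**Figure D3:**
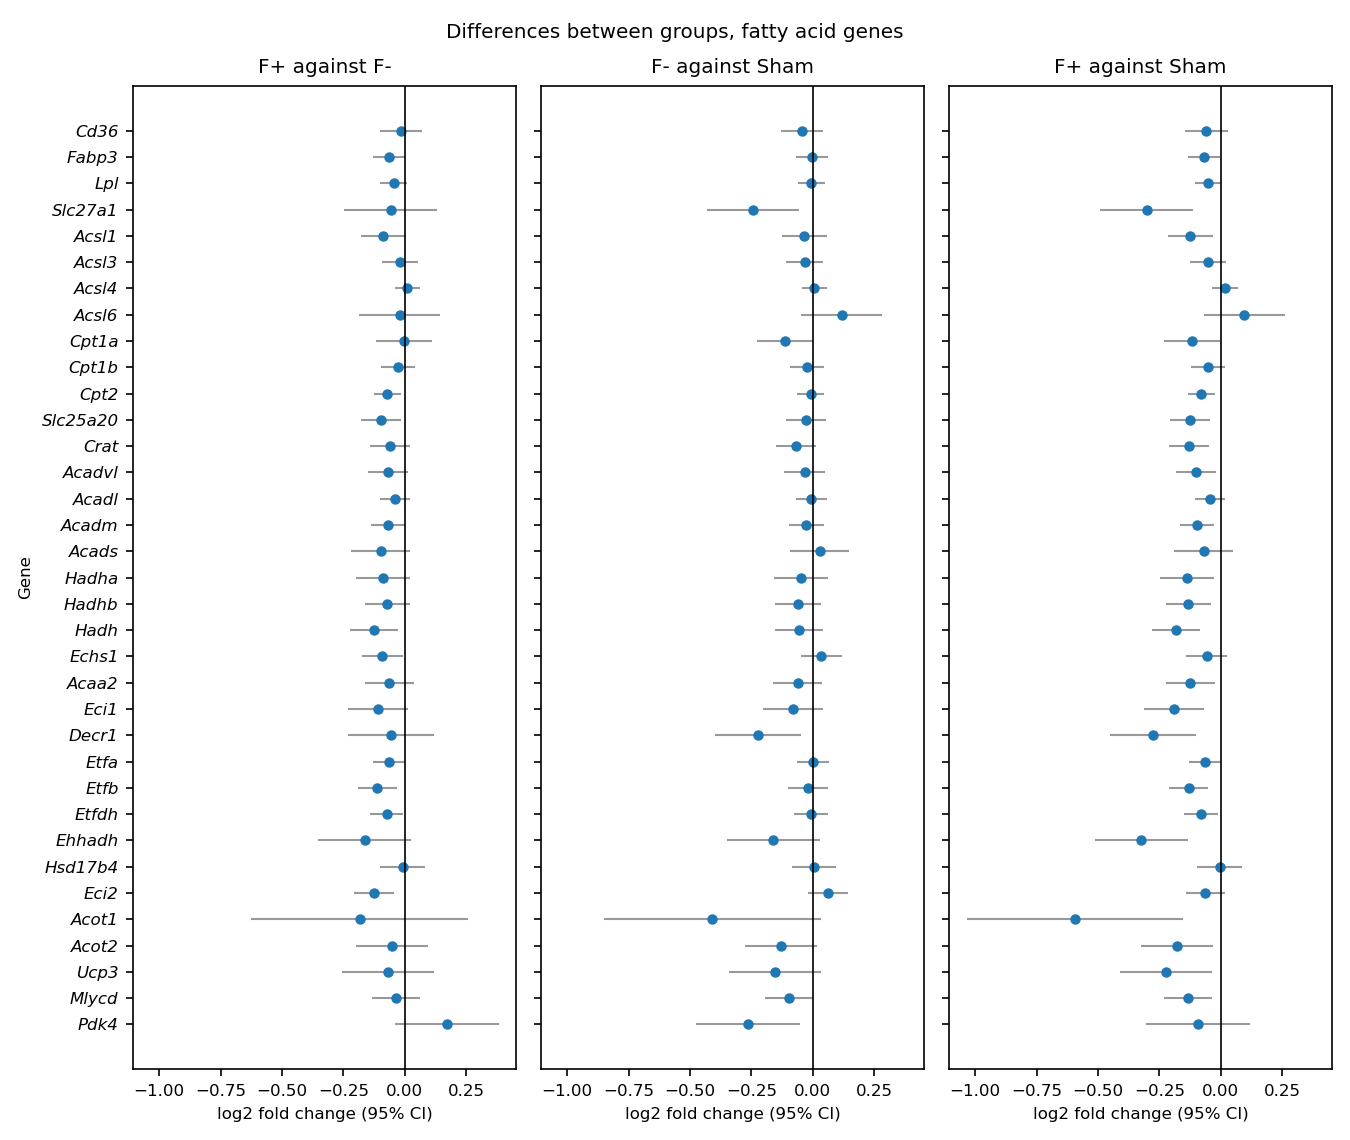
Log2 fold changes (horizontal axes, dots) of the 35 fatty acid genes with 95% confidence intervals (lines) for F+ against F-, F- against Sham and F+ against Sham, from limma on log2 deposited values. In the right panel 33 of 35 dots lie left of 0, and in the left panel Pdk4 is the dot farthest to the right.

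Promoter windows from RefSeq (GRCr8) were matched by symbol for 30 of the 35 genes. Lpl, Cpt1b, Acadl, Acaa2 and Decr1 had no entry in the table used. The AGGTCA half-site, searched on both strands, is the unit that PPARalpha and RXR are known to bind as a direct repeat of 2 copies with 1 base between. It occurred in 8 of 30 windows (26.7%), against 16.2% of all 33469 windows of the same length. The direct repeat itself, spelled as AGGTCA or as AGGNCA in both copies, occurred in 0 of 30 windows, against 0.0538% and 0.415% of all windows. GGGCGG occurred in 20 of 30 windows (66.7%), against 33.1% of all, and CCAAT in 12 of 30 (40.0%), against 37.5%. These are matches of letters in a short window, and say nothing of binding.

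Half-sites of 4 genes described above are shown with their flanks on the strand of the gene, with the half-site, or its reverse complement TGACCT, in capitals. They come from Echs1 (GRCr8, chr1:204333582-204333611, - strand), Eci1 (chr10:13961144-13961173, + strand), Eci2 (chr17:30075771-30075800, + strand) and Acadvl (chr10:55236705-55236734, - strand).
Echs1: atcaccccgcccAGGTCAcgggtacatccc
Eci1: actggctgatctTGACCTcctgaagggcgg
Eci2: ccgagctcagttTGACCTcagcatccagct
Acadvl: agacgggagaagAGGTCAgtggtcaaggct
The half-sites shown lay 93, 94 and 17 bases before the start site of the window in Echs1, Eci1 and Acadvl, and 17 bases after it in Eci2. Those of Eci2 and Acadvl lie inside the RefSeq spans of their genes (chr17:30056274-30092169 and chr10:55231558-55236786). The start sites of these 2 windows are therefore not the outer ends of the genes. Acadvl held a further half-site, 169 bases before its start site, which is not shown. The genes with a half-site included both Eci2, which had the smallest unadjusted p for F+ against F-, and Hsd17b4, whose differences were near 0.

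Sham array 1 and F- array 1 stood apart from the other arrays of their groups. Sham array 1 held the highest value of 24 of 35 fatty acid genes, against 15.5% of all features, and F+ array 2 held the lowest of 17, against 11.4%. Taking each gene relative to its Sham mean, the median over the 35 genes was 0.043, -0.026 and -0.022 in Sham. It was -0.073, -0.031 and -0.0051 in F- and -0.084, -0.13 and -0.11 in F+. The F+ arrays thus lay below all others, with F- array 1 nearest to them. F- array 1 also differed from F- arrays 2 and 3 in marker genes. Its macrophage marker sum was 711.6, against 574.9 and 584.6 on those arrays and 708.4 to 750.8 in F+. Nppa, chosen after its values were seen, had 155.6, 37 and 43.6 in F- and 134.3 to 149.5 in F+, but also 135.8 on Sham array 2. The red cell sum (138.4) and cardiomyocyte sum (2447.6) of F- array 1 lay outside F+. The reason was not tested.

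**Figure D4:**
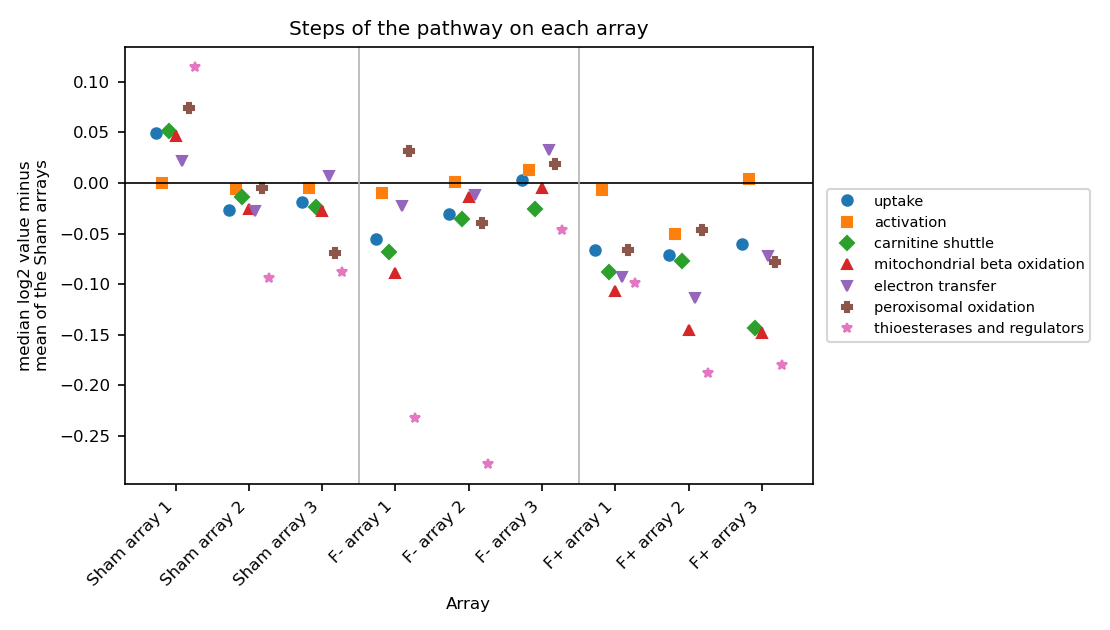
Median log2 deposited value of the genes of each step relative to their Sham means (vertical axis) on each of the 9 arrays (horizontal axis), with 1 symbol per step. The F+ arrays are below 0 for all steps but activation, where F+ array 3 is at 0.0041, and the thioesterases and regulators are also low on F- arrays 1 and 2.

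Without Sham array 1, 31 of 35 genes were lower in F+ than in Sham, with a median of -0.080 and 28 genes without overlap (11.1% of all features). The comparison of F- with Sham depended more on it, with 23 of 35 genes lower and a median of -0.013. Without F- array 1 the median for F- against Sham was -0.014, with 22 genes lower. With both arrays left out, 16 of 35 genes were lower in F- than in Sham, with a median of 0.0015. For F+ against F- the same omission left 32 of 35 genes lower, with a median of -0.081 and 16 genes at an unadjusted p under 0.05 (5.51% of all features). Leaving out both arrays was chosen after the values were seen.

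**Figure D5:**
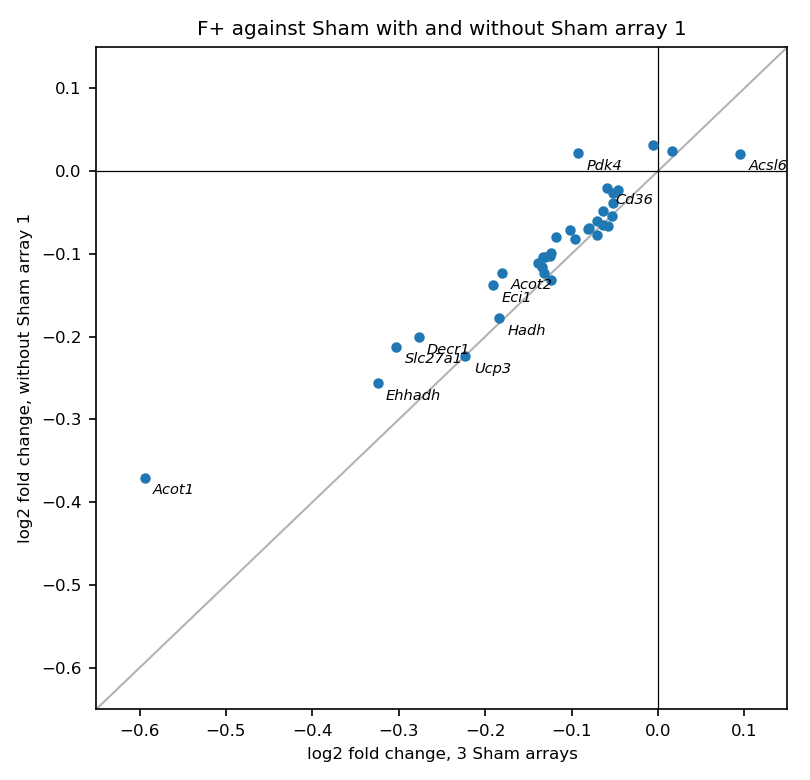
Log2 fold change of each fatty acid gene for F+ against Sham without Sham array 1 (vertical axis) against the value with all 3 Sham arrays (horizontal axis), with the line of equality in grey. Most dots lie above the line, closer to 0, and Pdk4 crosses 0 from -0.093 to 0.022.

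Other genes of fatty acid metabolism, a wider list of 64 of which 54 had a feature, were divided more evenly. For F+ against Sham, 35 of 54 had lower means, 12 lower and 1 higher at an unadjusted p under 0.05, and 0 passed the adjusted threshold. For F+ against F-, 33 of 54 were lower, 5 lower and 1 higher at that level. For F- against Sham, 33 were lower, 6 of them at that level. Over all features, 3.9%, 3.76% and 2.96% were lower at that level in these comparisons. The smallest p of these genes for F+ against F- was that of Gpihbp1, the endothelial protein that anchors lipoprotein lipase in capillaries. It had 84.5, 69.5 and 66.6 in Sham, 64.8, 64.6 and 63.6 in F- and 88.2, 80.6 and 76.3 in F+. F+ lay wholly above F-, with a difference of 0.34 on the log2 scale (standard error 0.090, unadjusted p = 0.00559 and adjusted p = 0.594 from limma), while its partner Lpl had -0.046. Of 6 endothelial markers, 4 were higher in F+ than in F-, with summed values of 459.9 to 475.1 in F- and 472.3 to 478.4 in F+, and their part in Gpihbp1 was not tested.

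A further 3 genes had small p-values for F+ against F-, all lower in F+. Acat1, the mitochondrial acetoacetyl-CoA thiolase, had -0.11, with 115.7 to 122.7 in F+ and 127 to 132 in F-. Acss2, an acetyl-CoA synthetase, had -0.11, and Dgat1, which makes triglyceride, had -0.11. For F+ against Sham the named genes were Ech1, a dienoyl-CoA isomerase (-0.25), Acacb, which makes malonyl-CoA at the outer mitochondrial membrane (-0.16), Acss2 (-0.15) and Acaa1b, a peroxisomal thiolase (-0.13). For F- against Sham they were Lipe, the hormone-sensitive lipase (-0.19), Slc25a42, the CoA carrier of the inner membrane (-0.16), Acad11, an acyl-CoA dehydrogenase (-0.10), and Acaa1b (-0.098). Ech1 had 144.9, 124.6 and 127.8 in Sham, so that Sham array 1 was again the highest. Angptl4, which inhibits lipoprotein lipase and was chosen after its values were seen, had 54, 27.3 and 30.8 in Sham, 24.4 to 28.8 in F- and 28.6 to 42.9 in F+, and so was also high on Sham array 1.

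Genes of neighbouring pathways were set beside the fatty acid genes. Of 29 respiratory chain genes, 28 were lower in F+ than in F-, with a median of -0.036, and 24 were lower in F+ than in Sham, with a median of -0.020. At an unadjusted p under 0.05, 0 and 1 of them were lower, against 9 and 22 of the 35 fatty acid genes. By overlap of arrays, F+ lay wholly below F- in 10 of the 29 respiratory chain genes, a share close to that of the fatty acid genes (12 of 35). It lay wholly below Sham in 6, against 28 of 35. Over all features, 3.76% and 3.9% were lower at that p, and 5.28% and 6.56% lay wholly below. Between F- and Sham, 9 of the 29 respiratory chain genes were lower and 20 higher in F-, with a median of 0.011. Of the fatty acid genes, 28 of 35 were lower in that comparison. Of 23 genes of glucose uptake and glycolysis, 6 were lower and 17 higher in F+ than in Sham, with a median of 0.052. At an unadjusted p under 0.05 from limma, 4 of the 23 were higher and 0 lower in F+ than in Sham. Over all features, 1023 of 29215 were higher at that level. F+ lay wholly above Sham in 9 of the 23 and wholly below in 2, against 1661 and 1916 of 29215 features. In this list 18 of 23 were higher in F- than in Sham, with a median of 0.024, and 14 were higher and 9 lower in F+ than in F-, with a median of 0.0092. The differences between these lists and the fatty acid genes were not tested.

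Cell type markers were compared between the groups as well, and the sums of several lists overlapped between groups. Of 16 cardiomyocyte markers, 15 were lower in F+ than in Sham, with a median of -0.012, and 15 lower than in F-, with a median of -0.020. Between F- and Sham, 4 of these markers were lower and 12 higher in F-, with a median of 0.0055. Their summed values were 2425.8 to 2456.5 in Sham, 2447.6 to 2465.1 in F- and 2389.3 to 2435.8 in F+. All 11 macrophage markers were higher in F+ than in F-, with a median of 0.23, and higher than in Sham, with a median of 0.25. Their sums were 588.8 to 620.2 in Sham and 708.4 to 750.8 in F+. On F- arrays 1 to 3 they were 711.6, 574.9 and 584.6, so that F- array 1 lay within the span of F+. Of 10 fibroblast markers, 7 were higher in F+ than in Sham, with sums of 836.2 to 882.8 in Sham, 841.8 to 907.4 in F- and 865.6 to 934.8 in F+. The 5 red cell markers had sums of 144.5 to 161.5 in Sham, 129.6 to 143.9 in F- and 180.4 to 292.2 in F+. Adipocyte markers, 9 in number, had sums of 357.3 to 392.7 in Sham, 348.6 to 360.7 in F- and 355.7 to 367.6 in F+, with the highest sum on Sham array 1. The part of these cell types in the values of the fatty acid genes was not tested.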

How the data were processed

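The 9 arrays of right ventricle gave 1 value per feature. The authors deposited these values as signal intensities without stating their scale or normalization, and they are treated here as a score. RNA extraction and labelling are described differently in the sample records (Sepasol, biotinylated cRNA) and in the methods (TRIzol, sense-strand cDNA). For precision, only the number of arrays was available.

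Columns were assigned to Sham, F- and F+ from the labels. In the platform annotation 15310 features had 1 gene symbol, 323 had more than 1 and 13582 had no entry. RefSeq (GRCr8) held 15279 of them under their gene ID, and 0 symbols changed. A linear model with 1 mean for each group was fitted to log2 of the deposited values of all 29215 features, using lmFit, contrasts.fit and eBayes of limma 3.58.1 in R 4.3.3. Within a comparison, two-sided p-values received Benjamini-Hochberg adjustment over every feature, at a threshold of 0.05. No low-value filter was used. Python 3.11.15 with pandas 2.3.3 and matplotlib 3.10.9 drew the figures. The procedure was tested on simulated data.

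The members, the marker lists and the tests were chosen with earlier results of these data known. Values on each array were given for Cd36, Cpt1b, Hadha, Acadm and Pdk4 for their roles, and for the 12 members with the smallest unadjusted p in any comparison. Of the other fatty acid genes, up to 4 per comparison were named by unadjusted p under 0.05. In all, 23 alternatives were tried, in transformation, normalization, filters, samples and priors. A comparison of protein sequences was not analysed here.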

Additional observations from a re-analysis of the deposited data

How the results depend on the processing

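No fatty acid gene passed the adjusted threshold under any of the 23 alternatives, of which the ratio of arithmetic means gave no test. Of 804 values of single genes per comparison, 8 changed sign for F+ against F-, 48 for F- against Sham and 7 for F+ against Sham, and the causes were not tested. For F+ against F-, Cpt1a turned to 0.0044 with quantile normalization. With 1 array left out, Cpt1a ranged from -0.046 to 0.019, Acsl3 from -0.034 to 0.012 and Hsd17b4 from -0.031 to 0.0048, the last also when Sham array 1 or 2 was left out with F- array 1. For F+ against Sham, Hsd17b4 turned to 0.0016 with median centring, and with 1 array left out it ranged from -0.040 to 0.031 and Pdk4 from -0.16 to 0.022. The upper values were those without Sham array 1, with or without F- array 1, and on square roots without Sham array 1 they were 0.099 and 0.079.

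The medians of the fatty acid genes followed the scale. They were -0.25, -0.13 and -0.36 as square roots (F+ against F-, F- against Sham and F+ against Sham), -5.23, -2.7 and -6.97 without transformation, and -0.25 and -0.26 as square roots without Sham array 1 (F+ against F- and F+ against Sham). With Sham array 1 and F- array 1 left out, chosen after seeing the data, 16 genes were lower in F- than in Sham, with a median of 0.0015.

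Of all features, 1 passed for F+ against F-. The number was 3 without transformation, without the dimmest 33.3% of features, with 1 symbol only, with trend and robust priors and without Sham array 2 and F- array 1. It was 2 without Sham array 1 and F- array 1, 0 with only the 2 groups compared, and 0 to 3 when 1 array was left out. For F+ against Sham, 0 passed, but 1 with only the 2 groups compared and 1 under either omission of 2 arrays.

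The labels number replicates 1 to 3 in each group. Same-numbered arrays did not deviate together (correlations of -0.21 to 0.053), so no pairing by number was seen. With 3 arrays a group, such correlations cannot exclude one. With the replicate number as a block, 0 features passed for F+ against F-, and the smallest adjusted p of a fatty acid gene was 0.729 (limma, Benjamini-Hochberg).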
